A study of Homo sapiens with 95 samples.

Results

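Aldo-keto reductases of the AKR1 family were described across 32 combinations of line and chemical in AALE cells, an immortalized human bronchial epithelial line. The 6 members were taken by gene symbol from the 27978 genes listed in every count table: AKR1A1, AKR1B1, AKR1B10, AKR1C1, AKR1C2 and AKR1C3. RNA was profiled by sparse full length (SFL) sequencing, a multiplexed method that spreads a shallow depth of reads over whole transcripts, in 95 samples. Each of 8 lines received cigarette smoke condensate (CSC) at 24 µg/ml, benzo[a]pyrene (BaP) at 173 µM, 4-(methylnitrosamino)-1-(3-pyridyl)-1-butanone (NNK) at 490 µM, or the vehicle DMSO. Of these lines, 4 overexpressed NRF2, FGFR1, NRG1 or PIK3CA and had as their control HcRed, an empty vector with a red reporter. The FAT1 and CDKN2A lines were CRISPR knockouts and had as their control GFP, a plasmid with Cas9 and green fluorescent protein but no guide RNA. All 32 combinations held 3 samples except FGFR1 with CSC, which held 2. Which promoters drove the vectors and whether a line was a single clone is not given in the sources used here. The labels call these samples replicates but do not tie a replicate to a separately made line, so p-values measure the spread between these samples only.

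AKR1 enzymes use NADPH to reduce aldehydes and ketones to alcohols. AKR1A1, aldehyde reductase, and AKR1B1, aldose reductase, act in most tissues, while AKR1B10 reduces retinal and reactive aldehydes. AKR1C1, AKR1C2 and AKR1C3 are hydroxysteroid dehydrogenases that also act on tobacco smoke carcinogens: they oxidize dihydrodiols of BaP to quinones and reduce the ketone of NNK. AKR1B10 and the AKR1C genes are known targets of NRF2, the transcription factor encoded by NFE2L2 that drives the response to oxidants and electrophiles.

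The AKR1C genes lie side by side on chromosome 10 and are close copies of each other. On GRCh37, the build of the deposited alignments (hg19), AKR1C1 (ENSG00000187134) spans chr10:5005445-5025475 on the plus strand, AKR1C2 (ENSG00000151632) chr10:5029967-5060223 on the minus strand, and AKR1C3 (ENSG00000196139) chr10:5077546-5149878 on the plus strand, each with 9 exons. AKR1B1 (ENSG00000085662, chr7:134127108-134144036, minus strand) and AKR1B10 (ENSG00000198074, chr7:134212319-134226164, plus strand) neighbour each other on chromosome 7, and AKR1A1 (ENSG00000117448) lies at chr1:46016215-46035721 on the plus strand. The coding sequences of AKR1C1 and AKR1C2 were 98% identical over 969 aligned bases, against 91.4% for AKR1C1 with AKR1C3, 91% for AKR1C2 with AKR1C3 and 76.1% for AKR1B1 with AKR1B10. Coding exon 2 is shown because it separates AKR1C1 (chr10:5008106-5008273) from AKR1C2 (chr10:5043706-5043873) better than any other coding exon, with 10 of 168 bases that differ, in capitals here and written 5′ to 3′ on the strand of each gene.
AKR1C1 exon 2: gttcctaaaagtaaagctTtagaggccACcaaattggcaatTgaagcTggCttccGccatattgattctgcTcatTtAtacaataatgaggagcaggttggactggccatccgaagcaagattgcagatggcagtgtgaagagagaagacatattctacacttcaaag
AKR1C2 exon 2: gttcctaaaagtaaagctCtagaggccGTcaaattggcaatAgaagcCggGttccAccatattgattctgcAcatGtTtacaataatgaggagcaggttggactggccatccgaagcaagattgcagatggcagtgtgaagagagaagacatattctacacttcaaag

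Coding exon 4 shows the opposite case, since its 78 bases had 0 differences between AKR1C1 (chr10:5010501-5010578) and AKR1C2 (chr10:5041392-5041469), so that a read inside it cannot be assigned to either gene.
AKR1C1 and AKR1C2 exon 4: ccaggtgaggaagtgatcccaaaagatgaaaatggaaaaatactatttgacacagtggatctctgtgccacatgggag

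The libraries were sequenced as single reads of 75 bases. All stretches of 75 bases in the coding sequence were searched for elsewhere in the genome and in the transcripts of other genes named AKR. A match was found for 35.5% in AKR1C1, 40.9% in AKR1C2, 15.3% in AKR1C3 and 12.9% in AKR1B10, and for none in AKR1A1 and AKR1B1. AKR1C1 and AKR1C2 shared 299 of 895 stretches, or 33.4%. The split of reads among the AKR1C genes is therefore uncertain, and the sum of their reads is given beside the main results.

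**Figure D1:**
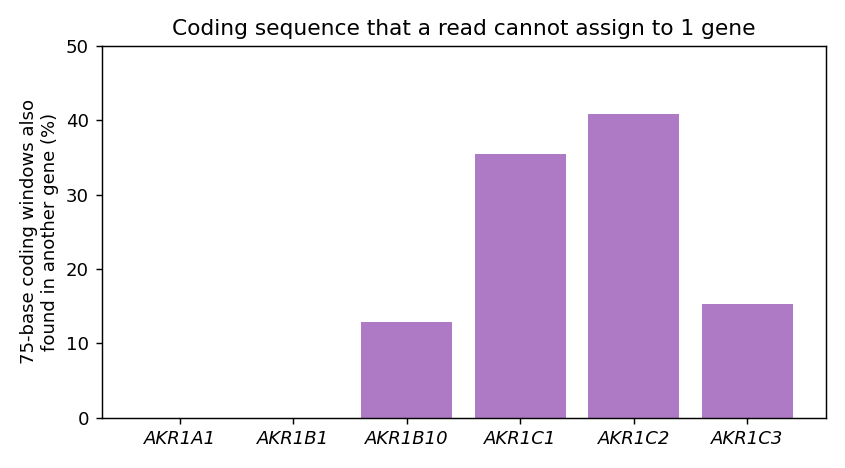
Percent of the 75-base windows of each member's coding sequence (vertical axis) that occur unchanged elsewhere in the genome or in the transcripts of another AKR gene. AKR1C2 (40.9%) and AKR1C1 (35.5%) have the largest shares, and AKR1A1 and AKR1B1 have none.

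The RefSeq promoters of AKR1C1 and AKR1C2 are close copies as well, with 96.5% identity over 254 aligned columns and all 9 differing columns at the ends. The 250 bases before the start of AKR1C1, chr10:4963165-4963414 on the plus strand of GRCh38.p14, are shown because AKR1C1 was the member with the largest response. The capitals mark the bases with no identical partner in the window of AKR1C2 (chr10:5003858-5004107, minus strand).
AKR1C1 promoter: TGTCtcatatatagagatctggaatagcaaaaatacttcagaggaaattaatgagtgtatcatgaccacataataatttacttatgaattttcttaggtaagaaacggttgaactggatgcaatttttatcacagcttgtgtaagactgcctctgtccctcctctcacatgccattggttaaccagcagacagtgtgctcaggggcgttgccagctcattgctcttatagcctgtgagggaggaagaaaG

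Of the 6 members, 5 had promoter entries in RefSeq. Searched on both strands, none of them held TGACNNNGC, the core of the antioxidant response element that NRF2 binds, which 10.9% of the 35116 promoters in the table held. TGACTCA, a site for AP-1 that begins with the same TGAC, was in 4.2% of all promoters and in none of the members' windows. GCGTG, the core to which the aryl hydrocarbon receptor binds, was in 32.2% of all promoters and, among the members, in those of AKR1B1. These windows are short, and a match or its absence describes letters only.

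The samples held 287446 to 2116383 reads assigned to genes (median 934235). Levels are given as CPM, the usual rate of a gene's counts in its library, here after TMM scaling. A total of 3 reads corresponded to 1.42 to 10.4 CPM at these depths, and intervals and limits from counts cover counting error only. Each line had its target: NFE2L2 was at 1320 to 1790 CPM in the NRF2 line against 191 to 247 in HcRed, FGFR1, NRG1 and PIK3CA were above every HcRed sample in their lines, and FAT1 (66.5 to 129 against 260 to 451 CPM) and CDKN2A (35.1 to 66.8 against 79.1 to 147) were below every GFP sample. Basal epithelial markers (KRT5, KRT14, KRT17, TP63, ITGA6, EPCAM and CDH1) summed to 3500 to 11300 CPM per sample, while 13 markers of fibroblast, immune, endothelial, ciliated, club and goblet cells summed to 10.8 to 73.4 CPM. COL1A1 made up most of the latter (4.72 to 61.7 CPM), and CD3E had no read in any sample.

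AKR1B1 and AKR1A1 were the abundant members. AKR1B1 ranged from 35.8 to 96.4 CPM over the 95 samples (median 60.1) and AKR1A1 from 16.9 to 53.7 CPM (median 31.3). AKR1C2 had a median of 5.76 CPM (0 to 19.8), AKR1C3 of 5.1 (0 to 14.8), AKR1C1 of 3.61 (0 to 17.4) and AKR1B10 of 2.64 (0 to 9.94). Per kilobase of coding sequence, the order of the median levels was AKR1B1 (63.3 CPM), AKR1A1 (32.1), AKR1C2 (5.94), AKR1C3 (5.26), AKR1C1 (3.72) and AKR1B10 (2.79). The ranges of the last 4 overlapped, each starting at 0. Coding lengths of the members are nearly equal, so this order is not corrected for transcript length. SFL reads spread over whole transcripts, which differ more in length. Among the members, the annotated transcript of AKR1C1 is the longest and that of AKR1C3 the shortest. An order per kilobase of transcript was not computed and could differ. At most 3 reads were counted in 62 of 95 samples for AKR1B10, in 53 for AKR1C1, in 39 for AKR1C3 and in 33 for AKR1C2, so single values of these genes carry large counting errors. AKR1A1 and AKR1B1 had more than 3 reads in every sample.

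**Figure D2:**
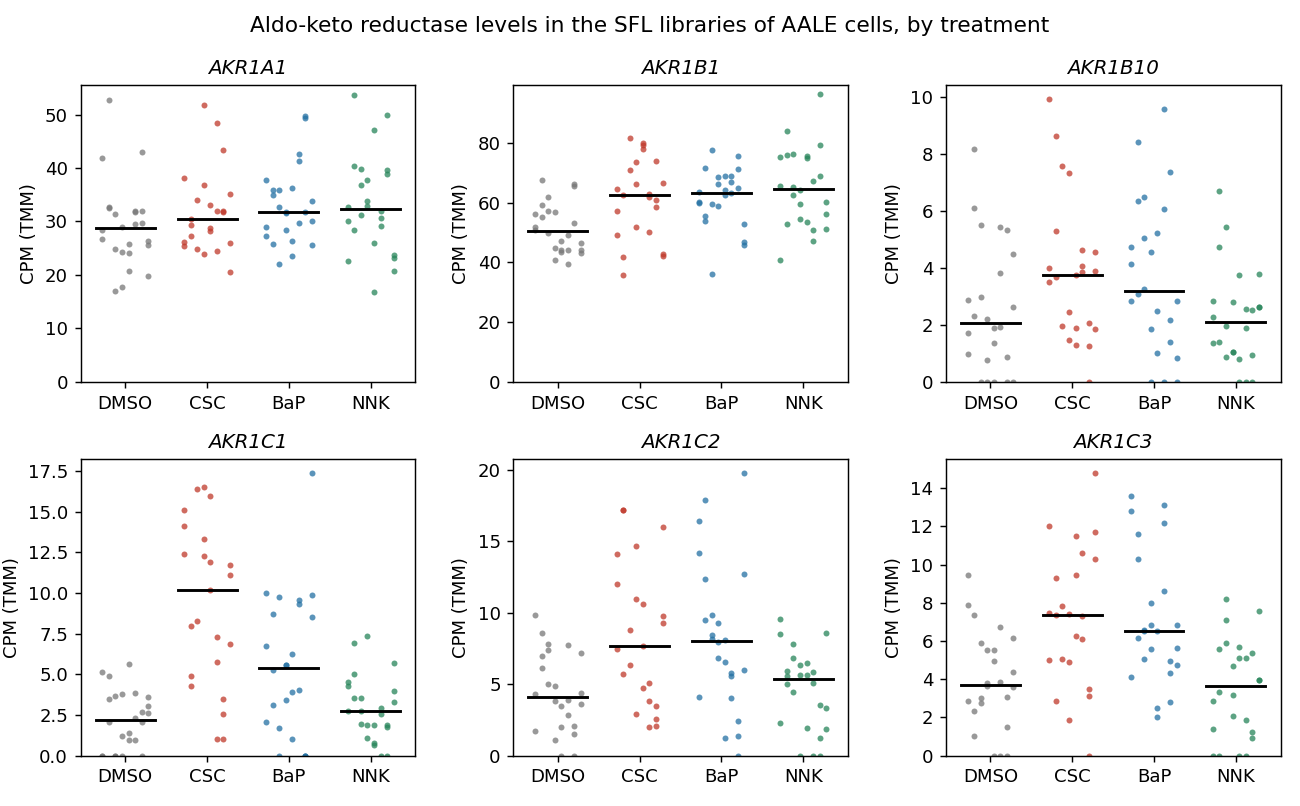
Level of each member in CPM (linear axes from 0, 1 panel per gene) in the 95 samples, grouped by treatment, with 1 column of points per line in the order HcRed, NRF2, FGFR1, NRG1, PIK3CA, GFP, FAT1, CDKN2A and a bar at the median of the treatment. The median of AKR1C1 was 2.19 CPM with DMSO, 10.2 with CSC, 5.42 with BaP and 2.73 with NNK.

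Exposure to CSC raised all 3 AKR1C genes over the 8 lines, with the largest fold for AKR1C1. AKR1C1 was at 0 to 5.66 CPM with DMSO (median 2.19, n = 24) and at 1.02 to 16.5 CPM with CSC (median 10.2, n = 23). The treatments overlapped, but 17 of 23 CSC samples lay above every DMSO sample and 19 lay above every DMSO sample of their own line. Each line had only 3 DMSO samples, and such counts are not given here for all genes. In a model with line as a term the log2 fold change was 2.05 (SE 0.25, adjusted p = 2.9e-11), a 4.15-fold rise with a 95% interval of 2.93 to 5.9. Adjusted p-values are from limma on voom-transformed counts, with Benjamini-Hochberg adjustment over all genes fitted, unless edgeR or DESeq2 is named.

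AKR1C2, which inactivates dihydrotestosterone, was at 0 to 9.84 CPM with DMSO (median 4.1) and at 1.99 to 17.2 CPM with CSC (median 7.69). Its log2 fold change was 0.93 (SE 0.21, adjusted p = 6.7e-05). AKR1C3, which makes testosterone and prostaglandins of the F series, had a median of 3.72 CPM with DMSO (0 to 9.47) and of 7.36 with CSC (0 to 14.8), a log2 fold change of 0.99 (SE 0.23, adjusted p = 0.00015). For both genes the ranges overlapped widely, with 8 (AKR1C2) and 6 (AKR1C3) of 23 CSC samples above every DMSO sample. Summed over the 3 AKR1C genes, the median rose from 10.5 CPM (2.66 to 20.8) to 28.2 CPM (5.09 to 38), with a log2 fold change of 1.22 (SE 0.12, adjusted p = 4.1e-15). The sum does not depend on how counted reads were split among these 3 copies. Any reads dropped because they match several genes are missing from it too. The summed mean was higher with CSC in all 8 lines.

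The other members changed less with CSC. AKR1B1, which reduces glucose to sorbitol, had a median of 50.4 CPM with DMSO (39.5 to 67.5) and of 62.5 with CSC (35.8 to 81.6), a log2 fold change of 0.27 (SE 0.07, adjusted p = 0.00034). After correction for GC content and length its adjusted p was 0.37. AKR1B10 had medians of 2.07 and 3.77 CPM and a log2 fold change of 0.66 (SE 0.26, adjusted p = 0.022), but edgeR (adjusted p = 0.11) and DESeq2 (0.094) did not call it, and without replicate 2 of every group its log2 fold change was 0.40 (adjusted p = 0.29). AKR1A1 was at medians of 28.7 and 30.5 CPM, with a log2 fold change of 0.12 (95% interval −0.05 to 0.30, adjusted p = 0.25).

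In all, 5 of 6 members were called with CSC, all 5 of them higher, while 55.6% of all genes tested were called and 27.2% were called higher. The median log2 fold change of the members was 0.79, against −0.01 over all genes tested. Markers of other cells moved with CSC too, from 10.8 to 36.9 CPM summed with DMSO to 15.1 to 67.2 with CSC, and basal markers from 4870 to 9830 CPM to 3800 to 7800. Their part in the results was not tested. With BaP and NNK the markers of other cells summed to 18.7 to 73.4 and to 15 to 54.9 CPM, and basal markers to 3500 to 8100 and to 5120 to 11300 CPM. Fewer cells that express a gene and less RNA per cell cannot be told apart in these bulk samples.

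**Figure D3:**
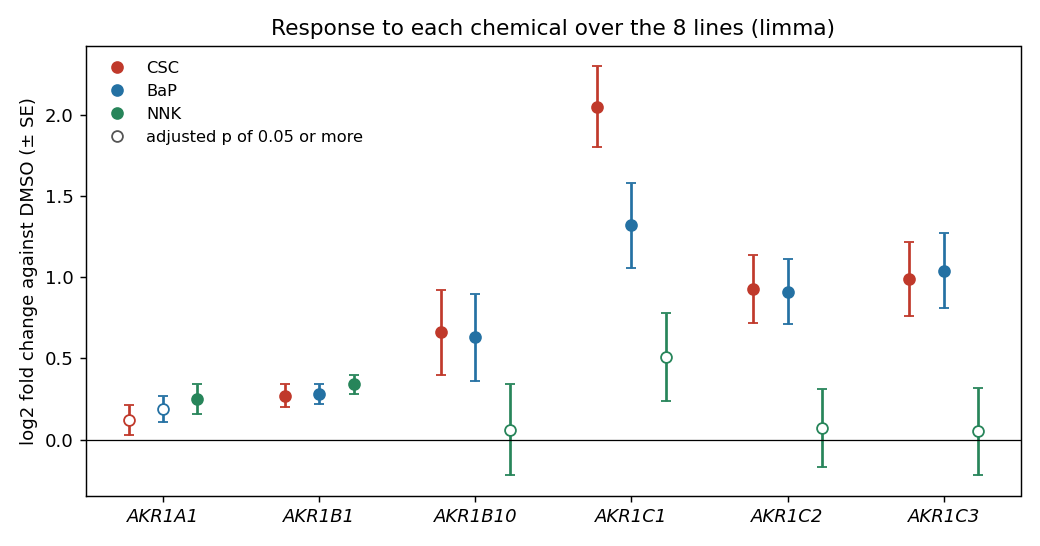
Log2 fold change of each member with CSC, BaP and NNK against DMSO over the 8 lines (vertical axis, limma, bars are ± SE). Filled points have an adjusted p below 0.05. AKR1C1 with CSC stands highest at 2.05, and for NNK only AKR1A1 (0.25) and AKR1B1 (0.34) are filled.

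BaP, a polycyclic hydrocarbon of tobacco smoke, raised the AKR1C genes as well. AKR1C1 reached a median of 5.42 CPM (0 to 17.4, n = 24), a log2 fold change of 1.32 (SE 0.26, adjusted p = 1.1e-05), and 10 of 24 samples were above every DMSO sample. AKR1C2 rose to a median of 8.04 CPM (0 to 19.8), a log2 fold change of 0.91 (SE 0.20, adjusted p = 4.8e-05). AKR1C3 rose to 6.53 CPM (2.03 to 13.6), a log2 fold change of 1.04 (SE 0.23, adjusted p = 6.7e-05). BaP and DMSO samples overlapped for each of these genes. The 3 genes summed had a log2 fold change of 0.99 (SE 0.13, adjusted p = 1.7e-10).

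With BaP, AKR1B1 had a log2 fold change of 0.28 (adjusted p = 8.1e-05, and 0.37 after GC and length correction). That correction left 3392 of 13427 genes called with BaP, against 7402 of 14392 without it. AKR1B10 had one of 0.63 with an adjusted p of 0.045 that was above 0.05 with edgeR (0.11), with DESeq2 (0.11) and under 5 other alternatives, among them leaving out replicate 2 (log2 fold change 0.33, adjusted p = 0.4) and replicate 3 (0.63, 0.1). AKR1A1 had one of 0.19 (adjusted p = 0.054). In all, 5 of 6 members were called with BaP, all of them higher, against 51.4% of all genes tested called and 26.4% called higher.

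NNK, a nitrosamine that AKR1C enzymes reduce, did not give a call for any AKR1C gene. AKR1C1 was at a median of 2.73 CPM (0 to 7.36, n = 24) with a log2 fold change of 0.51 (95% interval −0.03 to 1.05, adjusted p = 0.11). The log2 fold changes were 0.07 for AKR1C2 (interval −0.41 to 0.55), 0.05 for AKR1C3 (−0.49 to 0.58) and 0.06 for AKR1B10 (−0.50 to 0.61). Summed, the AKR1C genes had a log2 fold change of 0.10 (adjusted p = 0.57), and the NNK samples lay between 1.88 and 18.1 CPM, none above the highest DMSO sample (20.8).

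AKR1B1 (log2 fold change 0.34, SE 0.06, adjusted p = 2.6e-06) and AKR1A1 (0.25, SE 0.09, adjusted p = 0.015) were the 2 of 6 members called with NNK, both higher, against 51.7% of all genes called and 25.9% called higher. AKR1B1 was above every DMSO sample of its own line, 3 per line, in 20 of 24 NNK samples. This count is not given here for all genes. After GC and length correction neither was called (adjusted p = 0.079 for AKR1B1 and 0.8 for AKR1A1), and AKR1A1 also lost its call without replicate 1 (log2 fold change 0.22, adjusted p = 0.13). Over all genes the correction left 2365 of 13428 called with NNK, against 7438 of 14387 without it.

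The chemicals were given at 1 dose each, in different units, so their comparison is one of these exposures and not of potency. AKR1C1 was higher with CSC than with BaP, by 0.74 on the log2 scale (SE 0.21, adjusted p = 0.0066), the 1 call among 6 members (15.1% of all genes). Without replicate 1 this difference was 0.59 (adjusted p = 0.12), and the 3 AKR1C genes summed differed by 0.23 (adjusted p = 0.18). The intervals of AKR1C2 (−0.31 to 0.38) and AKR1C3 (−0.43 to 0.29) for CSC less BaP included 0.

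Between CSC and NNK, 4 of 6 members were called, all higher with CSC, against 21.6% of all genes. The log2 differences were 1.56 for AKR1C1 (SE 0.22, adjusted p = 7.1e-09), 0.96 for AKR1C3 (0.22, 0.00052), 0.90 for AKR1C2 (0.22, 0.00087) and 0.66 for AKR1B10 (0.24, 0.041). AKR1C2 lost its call without replicate 3 (0.75, adjusted p = 0.055). AKR1B10 lost it without replicate 1 (0.75, adjusted p = 0.073) and without replicate 2 (0.41, adjusted p = 0.41), and also with DESeq2 (0.80, 0.051), with all genes that had a read (0.61, 0.086) and after GC and length correction (0.62, 0.05).

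Within single lines, AKR1C1 was called with CSC in HcRed and in 3 of the lines compared with it. In HcRed, the 3 DMSO samples were at 5.17, 0 and 0 CPM and the CSC samples at 12.4, 14.1 and 15.1. In FGFR1 they were at 3.69, 0 and 0 CPM with DMSO and at 16.4 and 8.31 with CSC. In NRG1 they were at 3.8, 1.21 and 0 CPM with DMSO and at 16.5, 13.3 and 12.3 with CSC. CSC and DMSO samples did not overlap in any of these lines. In groups this small, the share of all genes without overlap is not given here or below.

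PIK3CA gave 0.988, 1.38 and 5.66 CPM of AKR1C1 with DMSO and 16, 10.2 and 11.9 with CSC, again without overlap. These 4 lines were the ones in which limma called AKR1C1, with log2 fold changes of 3.35 (SE 0.75, adjusted p = 0.0004) in HcRed, 3.31 (0.82, 0.0028) in FGFR1, 3.02 (0.69, 0.00066) in NRG1 and 2.41 (0.55, 0.00059) in PIK3CA. These folds depend on DMSO samples with few or no reads.

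CDKN2A samples also did not overlap, with 2.64, 3.08 and 3.61 CPM of AKR1C1 with DMSO and 11.1, 11.7 and 6.84 with CSC. The NRF2 samples were at 2.05, 4.9 and 3.49 CPM with DMSO and at 7.95, 4.31 and 4.9 with CSC. GFP samples were at 3.87, 0.96 and 2.33 CPM with DMSO and at 5.79, 7.29 and 1.02 with CSC. In the NRF2 and GFP lines the groups overlapped. FAT1 had the lowest mean with CSC, with 0, 2.66 and 2.05 CPM with DMSO and 3.51, 2.55 and 1.03 with CSC, also with overlap.

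**Figure D4:**
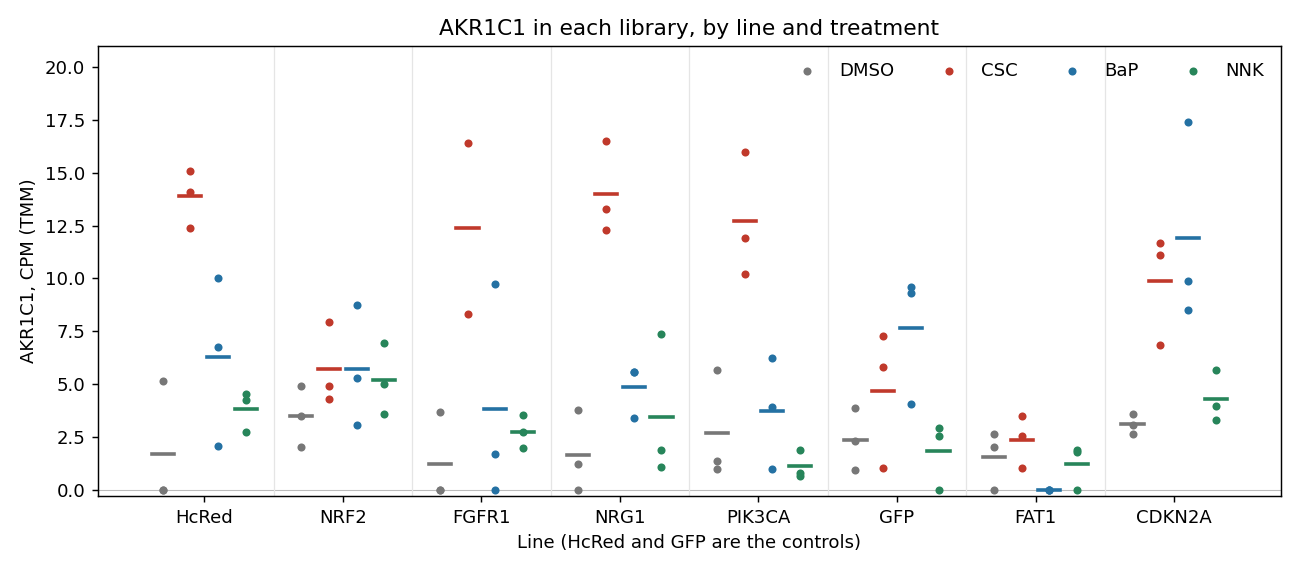
AKR1C1 in CPM (vertical axis) in each library, by line and treatment. Points are samples and bars are means of 3 samples (2 for FGFR1 with CSC). CSC means are between 12.4 and 14 CPM in HcRed, FGFR1, NRG1 and PIK3CA, and 2.36 in FAT1, where BaP has 0 reads in all 3 samples.

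Over the 8 lines and 6 members, 11 of 48 tests of CSC were called, all 11 higher, against 16.3% of all tests called and 8.59% called higher. AKR1C1 had 4 of these calls. AKR1C2 had 3, in PIK3CA (log2 fold change 2.20, adjusted p = 0.013), CDKN2A (1.35, 0.046) and HcRed (1.26, 0.048). AKR1C3 had 3, in GFP (1.99, 0.016), PIK3CA (1.68, 0.036) and CDKN2A (1.37, 0.043). AKR1B1 had 1, in PIK3CA, where DMSO samples were at 43.5, 44.3 and 47.2 CPM and CSC samples at 79.2, 78.1 and 80.1 (0.80, SE 0.15, adjusted p = 3.1e-05). That AKR1B1 rise did not overlap. With edgeR 6 and with DESeq2 4 of the 48 were called. Of the 113652 tests of all genes, edgeR called 18800 and DESeq2 7077. With each replicate left out in turn, AKR1C1 in HcRed, NRG1 and PIK3CA and AKR1B1 in PIK3CA kept their calls, and the other 7 lost them at least once, with log2 fold changes of 0.66 to 2.93 and adjusted p of 0.054 to 0.49 where they did.

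CDKN2A cells had the highest mean AKR1C3 level with CSC, from samples at 14.8, 11.7 and 10.3 CPM against 4.4, 6.15 and 3.61 with DMSO, without overlap. Their AKR1C2 values were 9.28, 9.79 and 16 CPM with CSC against 4.4, 7.18 and 3.61, also without overlap. In GFP, AKR1C3 was at 10.6, 7.29 and 6.1 CPM with CSC against 3.87, 6.72 and 0, where the ranges overlapped.

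BaP gave 6 calls in 47 tests within lines, all 6 higher, against 10.3% of all tests called and 5.34% called higher. They were AKR1C1 in HcRed (log2 fold change 2.41, adjusted p = 0.046) and CDKN2A (1.68, 0.015), AKR1C2 in HcRed (1.52, 0.049), AKR1C3 in GFP (2.43, 0.01), and AKR1B1 in GFP (0.59, 0.026) and PIK3CA (0.56, 0.018). In GFP, AKR1C3 went from 3.87, 6.72 and 0 CPM to 8.64, 13.1 and 12.2, without overlap. DESeq2 called none and edgeR 5 of the 47 tests, and 15 had an unadjusted p below 0.05 in limma. Of all genes, from 2542 of 14240 in HcRed to 4284 of 14428 in CDKN2A had one. DESeq2 called 3610 of the 113027 tests of all genes. Each of the 6 calls was lost when at least 1 of the replicates was left out, with log2 fold changes of 0.49 to 3.26 and adjusted p of 0.055 to 0.78.

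For NNK within lines, 1 of 48 tests was called, AKR1B1 in PIK3CA (53.4, 75.8 and 75.1 CPM against 43.5, 44.3 and 47.2, log2 fold change 0.55, adjusted p = 0.029), against 10.1% of all tests. DESeq2 called none and edgeR called 1, and the call was lost without replicate 2 (0.38, adjusted p = 0.47) and without replicate 3 (0.54, 0.12). In limma 6 of the 48 had an unadjusted p below 0.05. Of all genes, from 2757 of 14086 in NRG1 to 4231 of 13727 in GFP had one. DESeq2 called 3150 of the 112658 tests of all genes.

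Whether the response differed between lines was tested by the interaction of line and chemical, over all 8 lines at once. None of 18 tests was called in limma (6 members, 3 chemicals), where 0.952% of all genes were called for CSC, 0.368% for BaP and 0.452% for NNK. In limma 1335 of 14497 genes had an unadjusted p below 0.05 for CSC, 1108 of 14392 for BaP and 1495 of 14387 for NNK. Of the 18 tests of members, 4 had one: CSC for AKR1B1 (limma adjusted p = 0.092), AKR1C1 (0.21) and AKR1C2 (0.52), and BaP for AKR1C1 (0.64). DESeq2 called none and edgeR called 1, AKR1B1 with CSC (adjusted p = 0.039). Without replicate 1, limma called AKR1C1 with CSC (adjusted p = 0.0014). With all samples, the larger AKR1C1 folds in HcRed, FGFR1, NRG1 and PIK3CA are thus not shown to differ from those in the other lines.

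The NRF2 line was compared with HcRed under each treatment. AKR1B10 in NRF2 cells with DMSO was at 8.18, 6.12 and 2.32 CPM, against 1.72, 2.88 and 0.984 in HcRed, with overlap (log2 fold change 1.39, 95% interval 0.00 to 2.77, limma adjusted p = 0.25). With CSC, AKR1C1 was at 7.95, 4.31 and 4.9 CPM in NRF2 cells and at 12.4, 14.1 and 15.1 in HcRed, without overlap and lower in the NRF2 cells (log2 fold change −1.18, 95% interval −2.08 to −0.28, limma adjusted p = 0.12). Neither difference passed the threshold.

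No member was called in NRF2 against HcRed under any treatment, 0 of 24 tests in limma, edgeR and DESeq2, with these 2 tests at an unadjusted p below 0.05. Of all genes, 7.16% were called with DMSO, 4.87% with CSC, 7.25% with BaP and 3.91% with NNK. In limma 2806 of 14035 genes had an unadjusted p below 0.05 with DMSO and 2454 of 14315 with CSC. The numbers were 2922 of 14412 with BaP and 1994 of 13488 with NNK. At this depth the intervals were wide: with DMSO they ran from −0.28 to 3.18 for AKR1C1, from −0.33 to 1.79 for AKR1C2 and from −2.46 to 0.01 for AKR1C3, and were narrower for AKR1A1 (−0.14 to 0.75) and AKR1B1 (−0.15 to 0.54).

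A fit over the 4 treatments together, added after the data were seen, compared 12 NRF2 samples with 12 HcRed samples. None of 6 members was called by limma, edgeR or DESeq2, and none had an unadjusted p below 0.05, while 21.6% of all genes were called. In limma 4625 of 14242 genes had an unadjusted p below 0.05. The 95% intervals of the log2 fold changes were −0.01 to 1.17 for AKR1B10 (estimate 0.58, adjusted p = 0.16), −0.88 to 0.27 for AKR1C1, −0.31 to 0.61 for AKR1C2, −0.99 to 0.12 for AKR1C3, −0.08 to 0.41 for AKR1A1 and −0.19 to 0.19 for AKR1B1. This fit takes 1 difference between the lines for all 4 treatments, while AKR1C1 had estimates of 1.45 with DMSO and −1.18 with CSC. For that common difference, a 2-fold rise was inside the interval for AKR1B10 and outside it for the other 5 members. With DMSO alone, the intervals given above for AKR1B10, AKR1C1 and AKR1C2 held a 2-fold rise.

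Responses to the chemicals in NRF2 and HcRed cells were compared by an interaction term. None of 18 tests was called in limma, edgeR or DESeq2 (0.238% of all genes for CSC, 0.168% for BaP and 0.0794% for NNK). In limma 1422 of 14277 genes had an unadjusted p below 0.05 for CSC, 839 of 14325 for BaP and 877 of 13861 for NNK. Among the members, AKR1C1 with CSC was the 1 test with one, with a difference in log2 fold change of −2.65 (SE 0.93, limma adjusted p = 0.27). Its HcRed response starts from DMSO samples with 5.17, 0 and 0 CPM.

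FAT1 knockout cells had the lowest AKR1C levels of the 8 lines. With DMSO, the 3 AKR1C genes summed to 3.05, 2.66 and 7.17 CPM in FAT1 and to 15.5, 10.6 and 6.2 CPM in GFP. With CSC they summed to 10.5, 5.09 and 6.2 CPM against 20.3, 16.6 and 12.2. With BaP they summed to 4.24, 7.39 and 4.32 CPM against 24, 28 and 20.3. FAT1 and GFP samples did not overlap with CSC or BaP and overlapped with DMSO and with NNK (10.7, 2.83 and 2.51 CPM against 12.8, 1.88 and 8.76).

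Over the 4 treatments, also a fit added after the data were seen, the summed AKR1C reads were lower in FAT1 than in GFP, with a log2 fold change of −1.39 (SE 0.25, adjusted p = 1.7e-06). By gene, AKR1C1 fell by 1.41 on the log2 scale (SE 0.41, adjusted p = 0.0032), AKR1C3 by 1.22 (SE 0.36, 0.0033), AKR1C2 by 1.20 (SE 0.37, 0.0051) and AKR1B10 by 1.08 (SE 0.39, 0.017). AKR1B1 went the other way, with a log2 fold change of 0.33 (SE 0.09, adjusted p = 0.0013), and AKR1A1 had one of 0.13 (95% interval −0.11 to 0.36). In all, 5 of 6 members were called, 4 of them lower, in a comparison where 48.9% of all genes were called and 23.9% were called lower. The median of the members was −1.14, against 0.03 over all genes tested.

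Single replicates carried part of this. Without replicate 1, AKR1C1 had a log2 fold change of −0.76 (adjusted p = 0.23), AKR1B10 of −0.81 (0.18) and AKR1B1 of 0.25 (0.078). Without replicate 2, AKR1C3 had one of −0.73 (0.15), and without replicate 3, AKR1B10 had one of −0.94 (0.1). DESeq2 did not call AKR1B10 (adjusted p = 0.064). AKR1C2 kept its call in each of these fits (highest adjusted p = 0.05, without replicate 1). Basal markers differed too, at 3500 to 5460 CPM summed in FAT1 and 5530 to 7050 in GFP, and markers of other cells were at 18.6 to 73.4 against 13.4 to 58 CPM. Their part in the lower AKR1C levels was not tested. Median depth was 879911 reads in FAT1 and 1010964 in GFP, and by treatment it was 1146336 against 1068933 with DMSO, 825587 against 1041445 with CSC, 434425 against 523008 with BaP and 788392 against 522399 with NNK.

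AKR1C1 in FAT1 cells with BaP was at 0 CPM in all 3 samples, 0 of 2198510 reads, which allows up to 1.36 CPM without TMM scaling. In GFP with BaP it had 17 of 2038463 reads, or 8.34 CPM without TMM scaling, from samples at 9.6, 9.33 and 4.06 CPM. The groups did not overlap (limma adjusted p = 0.00055, and 0.17 without replicate 1). The GFP level was 6.11 times the FAT1 limit, which stands for 3 reads over the group. This ratio leaves out the counting error of the 17 reads and the spread between samples, so it is not a lower bound. The other calls of FAT1 against GFP in single treatments were AKR1C3 with CSC (log2 fold change −1.88, adjusted p = 0.029) and BaP (−1.44, 0.044), and AKR1B1 with DMSO (0.46, 0.038) and NNK (0.58, 0.037). Each of these was lost with DESeq2 and in at least 1 fit that left out a replicate. AKR1B10 and AKR1C1 were below the count filter in FAT1 against GFP with NNK and were not tested there, nor was AKR1C1 for BaP against DMSO in FAT1.

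**Figure D5:**
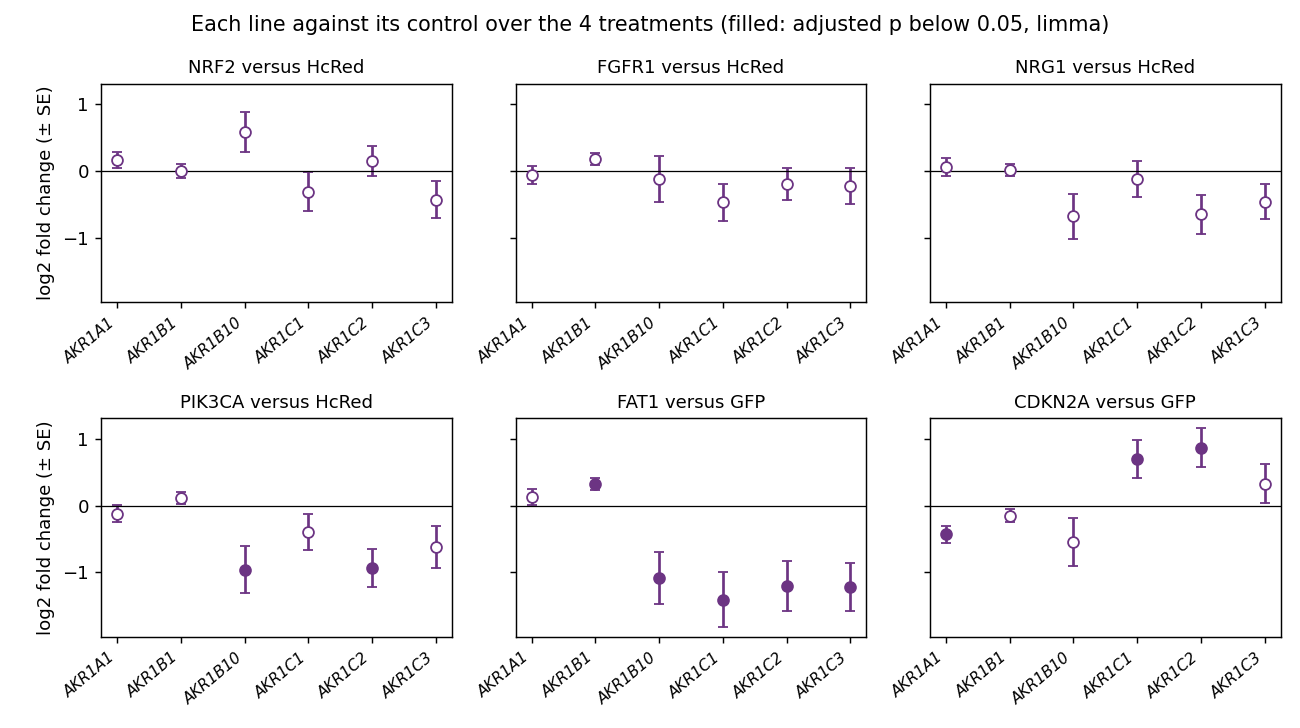
Log2 fold change of each member (vertical axis, limma, bars are ± SE) in each line against its control over the 4 treatments. Filled points have an adjusted p below 0.05. In FAT1 the 3 AKR1C genes and AKR1B10 lie between −1.41 and −1.08 and AKR1B1 at 0.33, and in the NRF2, FGFR1 and NRG1 panels no point is filled.

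CDKN2A knockout cells differed from GFP in the other direction for some AKR1C genes. Over the 4 treatments AKR1C2 had a log2 fold change of 0.87 (SE 0.29, adjusted p = 0.0087) and AKR1C1 of 0.70 (SE 0.28, adjusted p = 0.03), while AKR1A1 fell by 0.43 (SE 0.13, adjusted p = 0.0028). These were 3 of 6 members, where 57.6% of all genes were called, so the share of members called was below that of all genes. AKR1C1 was not called by edgeR (adjusted p = 0.055) or DESeq2 (0.052), nor without replicate 2 (0.60, adjusted p = 0.14) or replicate 3 (0.50, 0.19), and AKR1C2 not without replicate 2 (0.45, 0.26) or replicate 3 (0.76, 0.067). The 3 AKR1C genes summed had a log2 fold change of 0.60 (SE 0.18, adjusted p = 0.0025). With CSC alone, AKR1C2 was at 9.28, 9.79 and 16 CPM in CDKN2A and at 3.86, 1.99 and 5.09 CPM in GFP, without overlap (1.86, adjusted p = 0.0021, and 0.059 without replicate 2). Basal markers summed to 3800 to 5810 CPM in CDKN2A against 5530 to 7050 in GFP, and markers of other cells to 27.3 to 68.1 against 13.4 to 58, and their part in these differences was not tested.

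PIK3CA cells had less AKR1C2 and AKR1B10 than HcRed over the 4 treatments, by 0.93 (SE 0.28, adjusted p = 0.0083) and 0.96 (SE 0.35, adjusted p = 0.03) on the log2 scale. These 2 of 6 members compare with 27.8% of all genes called. AKR1B10 was not called by edgeR (adjusted p = 0.078) or DESeq2 (0.12), without replicate 1 (−0.68, 0.28) or without replicate 2 (−0.90, 0.12), and AKR1C2 was not called without replicate 2 (−0.57, 0.25). The 3 AKR1C genes summed had a log2 fold change of −0.57 (SE 0.16, adjusted p = 0.0058). Basal markers were lower in PIK3CA as well (4690 to 5550 CPM summed, against 7090 to 9460), markers of other cells summed to 11.8 to 26.2 against 10.8 to 40.2 CPM, and their part was not tested. FGFR1 and NRG1 had 0 of 6 members called each in limma, edgeR and DESeq2 (13.5% and 10.8% of all genes), with 0 and 1 test at an unadjusted p below 0.05. The 1 test was AKR1C2 in NRG1 (−0.65, 95% interval −1.22 to −0.07, adjusted p = 0.15). Over all genes, 3722 of 14347 in FGFR1 and 3261 of 14210 in NRG1 had an unadjusted p below 0.05 in limma.

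With DMSO alone, lines and controls of 3 samples each gave few calls. For FGFR1, NRG1, PIK3CA and CDKN2A no member was called by limma, edgeR or DESeq2, against 1.86%, 2.04%, 8.6% and 37.2% of all genes, and 1 member, in PIK3CA, had an unadjusted p below 0.05. In limma 1800 of 14214 genes in FGFR1 and 1784 of 14053 in NRG1 had one. The numbers were 2907 of 14278 in PIK3CA and 6518 of 14540 in CDKN2A. For FAT1 1 of 6 was called, AKR1B1 as given above, against 26.3%. The 2 control lines differed from each other in 1 of 6 members (17.7% of all genes): AKR1C3 was at 3.87, 6.72 and 0 CPM in GFP and at 9.47, 2.88 and 7.87 in HcRed, with overlap (log2 fold change −1.83, SE 0.67, adjusted p = 0.046), and neither edgeR nor DESeq2 called it. Without GFP replicate 3, which had no read of the gene, the difference was −0.38 (adjusted p = 0.72).

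Over CSC, BaP and NNK, the FGFR1, NRG1, PIK3CA, FAT1 and CDKN2A lines against their controls gave 7 calls in 88 tests, 3 higher and 4 lower, or fewer than the 12.8% of all tests called. Beside those of FAT1 and CDKN2A given above, they were AKR1B1 in PIK3CA with CSC (0.46, adjusted p = 0.031, and 0.17 or 0.22 without replicate 2 or 3) and AKR1C3 in PIK3CA with BaP, at 2.03, 2.5 and 6.54 CPM against 13.6, 12.8 and 4.13 in HcRed, with overlap (−1.66, adjusted p = 0.048, and 0.5 or 0.29 without replicate 1 or 2). All comparisons with HcRed or with GFP share those control samples, and all chemical comparisons share the DMSO samples, so their results are not independent of each other.

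Levels by line and by combination were close to continuous. Ordered by mean, the AKR1C1 level ran from 7.32 ± 4.55 CPM (SD, n = 12) in CDKN2A over 6.43 ± 5.29 in HcRed, 6 ± 5.37 in NRG1, 5.06 ± 5.15 in PIK3CA, 5.02 ± 1.99 in NRF2, 4.37 ± 5.14 in FGFR1 (n = 11) and 4.14 ± 3.21 in GFP to 1.29 ± 1.28 in FAT1. Neighbours in this order overlapped in every case. Among the 32 combinations, ordered by mean, all 31 pairs of neighbours overlapped for every member but AKR1C1, for which 30 did. The last pair for AKR1C1 was PIK3CA with NNK (0.809, 0.637 and 1.88 CPM) and FAT1 with BaP (0 in 3 samples).

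Across the means of log2 CPM of the 32 combinations, which share lines, treatments and depth, the AKR1C genes resembled each other, with Pearson r of 0.71 for AKR1C1 and AKR1C2, 0.63 for AKR1C2 and AKR1C3 and 0.56 for AKR1C1 and AKR1C3. The part of shared reads in these values was not tested. AKR1B10 had an r of 0.58 with AKR1C2, and AKR1A1 one of 0.59 with AKR1B1. AKR1C1 and AKR1A1 had an r of −0.07.

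Of the 10060 genes that averaged 10 or more reads per sample, those most like each member over the 32 combinations were as follows. AKR1C3 was most like GCLC (r = 0.76), SRXN1 (0.69) and TXNRD1 (0.68), which encode a subunit of the enzyme of glutathione synthesis, sulfiredoxin and thioredoxin reductase. AKR1C1 was most like NDRG1 (0.82), MT1X, a metallothionein (0.76), and TMEM201 (0.76). AKR1C2 was most like FOXA1 (0.78), RTL6 (0.76) and KIAA0930 (0.76), AKR1B10 like COX6B1 (0.70), KLF5 (0.69) and GALNS (0.67), AKR1B1 like RPLP0 (0.77), PMPCA (0.75) and TPI1 (0.74), and AKR1A1 like MLLT6 (0.75), DAB2IP (0.75) and IFITM10 (0.74).

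Targets of NRF2 outside the AKR family also rose with CSC and BaP. Of 24 listed, 22 rose with CSC and none fell (median log2 fold change 0.61), 21 rose with BaP and none fell (0.50), and 11 rose and 2 fell with NNK (0.17). Of all genes tested, 27.2%, 26.4% and 25.9% rose, and their medians were −0.01, 0.01 and 0.00. The most abundant of the list were the ferritin subunits FTH1 (log2 fold change 1.07 with CSC, 0.64 with BaP and 0.26 with NNK) and FTL (1.71, 1.41 and 0.58), and TXNRD1 (0.79 and 0.72, and 0.04 with NNK, adjusted p = 0.28).

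In the NRF2 line over the 4 treatments, 8 of these 24 targets were higher and none lower than in HcRed (median 0.08, against 0.00 over all genes), among them FTL (0.77) and FTH1 (0.66). Of the 14242 genes tested there, 21.6% were called, 1484 higher and 1597 lower. In FAT1, 15 of the targets were lower and 3 higher than in GFP (median −0.39, against 0.03 over all genes), with FTH1 at −0.40, TXNRD1 at −0.39 and FTL at 0.30. NFE2L2 itself was lower (−0.66, adjusted p = 4.3e-16). The relation of NFE2L2 and these targets to the AKR1C levels was not tested. Among all 14021 genes tested, 48.9% were called, 3348 lower and 3505 higher. In CDKN2A, 14 of the targets were higher and 4 lower (median 0.39, against 0.00 over all genes), with FTL at 1.95, FTH1 at 1.05 and TKT at −0.65. Here 57.6% of 14383 genes tested were called, 4222 higher and 4069 lower. The FAT1 and CDKN2A comparisons share the GFP samples.

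Targets of the aryl hydrocarbon receptor, the sensor of polycyclic hydrocarbons, all rose with each chemical: 6 of 6 with CSC (median 2.33), BaP (2.61) and NNK (1.36). The shares of all genes tested that were called higher were 27.2%, 26.4% and 25.9%. CYP1B1, which oxidizes BaP, had log2 fold changes of 3.37, 3.23 and 1.59, and CYP1A1 of 5.54, 5.53 and 2.91. NQO1 is in this list and in that of NRF2 (1.35, 1.04 and 0.38). The relation of these targets to the AKR1C levels was not tested.

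Other genes of the AKR superfamily were mostly at few reads, and 5 or 6 of 10 listed passed the filter. With CSC 2 rose and 1 fell, with BaP 2 rose, and with NNK 1 rose, where 55.6%, 51.4% and 51.7% of all genes were called. AKR7A2, an aflatoxin aldehyde reductase, rose with each (0.41, 0.54 and 0.47), and KCNAB2, a subunit of potassium channels, rose with CSC (0.47) and BaP (0.80). Of 8 other carbonyl reductases tested, 2 rose and 3 fell with CSC, 2 rose and 2 fell with BaP, and 2 rose and 1 fell with NNK, against the same shares of all genes. Among the abundant ones, DCXR, which reduces xylulose, rose with each chemical (0.43, 0.56 and 0.59), and HSD17B12 fell with CSC (−0.22) and BaP (−0.21).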

How the data were processed

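The authors deposited gene counts for each of the 95 samples, made from single-end SFL reads that the submitters' processing notes trace to hg19, with FastQC 0.11.5, cutadapt 1.12, STAR 2.5.2b and featureCounts of the Subread package. Counts were whole numbers, 1 column per sample, and no column was left unused (0). How reads that match several genes were counted is not given in the sources used here, nor is the time of exposure. AKR1 members, the comparisons and the gene lists were chosen with earlier results of these data known.

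Counts were scaled by TMM (edgeR 4.0.16), and genes that averaged over 1 read in the samples of a fit were tested by limma 3.58.1 on voom-transformed counts in R 4.3.3, 2-sided, with a Benjamini-Hochberg adjusted p below 0.05 as a call. Pairs of groups were fitted alone, chemicals over all lines with line as a term, and lines over all treatments with treatment as a term. The latter fits were added after the data were seen. Alternatives were the edgeR quasi-likelihood test, DESeq2 1.42.0 with its size factors, other filters (all genes with a read, a mean count of at least 10, the 10000 most variable genes), correction for GC content and length (loess), AKR1C reads summed, the replicate number as a block, all 95 samples in 1 model, and each replicate left out. The fitting code was tested on simulated data. Beside the members, the genes named were the target of each line, the 3 genes with the highest Pearson r with each member over the 32 means of log2 CPM (prior count 2), and the listed pathway genes with the highest mean count.

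Gene positions and coding sequences came from GENCODE on GRCh37, and promoters from RefSeq on GRCh38.p14. No 2 samples of a group agreed within sampling noise (lowest chi-square per degree of freedom over genes 1.14), so all were counted.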

Additional observations from a re-analysis of the deposited data

How the results depend on the processing

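Depth limited the low members: at the lowest depth 3 reads were worth 10.4 CPM, above the median of AKR1B10 and of each AKR1C gene, and p-values in groups of 3 rest on few reads. Of 5199 values entered for members under an alternative, 4984 kept their side of the threshold, 161 lost a call, 54 gained one and 0 calls reversed. With AKR1C reads summed, the value of the sum was entered for each of the 3 genes, so 1 change could be counted more than once. The total also includes values not called in the main fit, which had no call to lose. Values that were not called could change direction. For NRF2 against HcRed with DMSO, AKR1C1 had a log2 fold change of 1.45 and the summed AKR1C genes had −0.07. Of 446 counts of called members, 386 stayed within 1.5 times the main count. The NRF2 comparisons and interactions, and FGFR1 and NRG1 with DMSO or over all treatments, had 0 calls under every alternative run.

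The filter at a mean count of at least 10 removed most low members by construction and left 1 call for CSC, 2 for BaP and 0 for CSC against BaP and against NNK over all lines, 3 for CSC and 3 for BaP within lines, 0 for PIK3CA, 1 for FAT1 and 1 for CDKN2A over all treatments, 3 for the other lines with chemicals and 0 for GFP against HcRed. Over all lines it left 6950 of 10204 genes called for CSC and 6498 of 10099 for BaP. For CSC it left 2236 of 10071 against BaP and 2932 of 10013 against NNK. Within lines it left 18857 of 80882 tests for CSC and 12069 of 80092 for BaP. Over all treatments it left 3544 of 10198 genes for PIK3CA, 5719 of 9821 for FAT1 and 6728 of 9994 for CDKN2A. It left 25118 of 148963 tests for the other lines with chemicals and 2445 of 10011 for GFP against HcRed. The cause of the other changes was not tested. With DESeq2 the count of members called was 0 for FAT1 with DMSO, 0 for GFP against HcRed, 2 for the other lines with chemicals, 4, 0 and 0 for CSC, BaP and NNK within lines, and 1 for PIK3CA over all treatments. Of all genes, DESeq2 called 1983 of 14266 for FAT1 with DMSO and 989 of 14218 for GFP against HcRed. It called 13350 of 211204 tests for the other lines with chemicals. Within lines it called 7077 of 113652 for CSC, 3610 of 113027 for BaP and 3150 of 112658 for NNK. For PIK3CA it called 3568 of 14391. With edgeR the count of members was 0 for GFP against HcRed, 6 for CSC within lines, 1 for the CSC response between lines and 1 for PIK3CA. Of all tests, edgeR called 2591 of 14218, 18800 of 113652, 165 of 14497 and 4044 of 14391 in that order. With all genes that had a read the count of members was 4 for the other lines with chemicals, 7 for CSC and 2 for NNK within lines and 1 for PIK3CA. Of all tests, 25507 of 274828, 15369 of 147559, 9744 of 146568 and 3679 of 20784 were called in that order. GC and length correction gave 0 for FAT1 and 1 for CDKN2A with DMSO, 3 for BaP and 0 for NNK over all lines, and 2 for BaP and 0 for NNK within lines. Of all genes, 3529 of 13293 were called for FAT1 and 5094 of 13543 for CDKN2A. Over all lines 3392 of 13427 were called for BaP and 2365 of 13428 for NNK. Within lines 2614 of 105546 tests were called for BaP and 1143 of 105296 for NNK. The 10000 most variable genes gave 2 for FAT1 with DMSO, and 1 model of all 95 samples 0 for GFP against HcRed. Of all genes, 3723 of 10000 and 2405 of 14384 were called there.

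Leaving out 1 replicate gave 0 to 1 calls for FAT1 with DMSO, GFP against HcRed, CSC against BaP, NNK within lines and the CSC response between lines, 2 to 4 for the other lines with chemicals, 1 to 2 for NNK over all lines, 5 to 8 for CSC and 1 to 3 for BaP within lines, 0 to 2 for PIK3CA, 2 to 4 for FAT1 and 1 to 3 for CDKN2A over all treatments. Calls over all genes fell too. They numbered 16443 to 20139 for the other lines with chemicals and 6505 to 7050 for BaP within lines. The main fits had 27099 and 11613.

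No pairing by replicate number was seen: deviations of same-numbered samples correlated at −0.114 to 0.176 over 49 comparisons, in 0 of which every r was over 0.1. Counting noise at this depth lowers such correlations, so they cannot show that the samples were unpaired. With the replicate block, GFP against HcRed had 0 calls and the other lines with chemicals 4, and every other count stayed within 1.5 times the main one. Of all genes, the block fit called 2510 of 14218 for GFP against HcRed. For the other lines with chemicals it called 26306 of 211204 tests.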
